A study of Mus musculus with 36 samples.

Results

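The genes described here are 8 genes of cellular iron handling, taken by symbol from the first column of the count tables: Trf, Tfrc, Slc11a2, Fth1, Ftl1, Slc40a1, Ireb2 and Aco1. All 8 were found among the 40205 features that each library lists. The list was drawn up around Trf because Trf was lower in neural stem cells (NSCs) at the higher ethanol dose, so the list was chosen by the measured Trf values of cells at 0 and 320 mg/dL, and the cell values at that dose are given below as a description without a test. Fetal mouse NSCs were grown as neurospheres, spheres of floating progenitor cells, and whole-transcriptome RNA was sequenced from the cells and from the extracellular vesicles (EVs) that they had shed into the medium. All 36 libraries came from mice that the labels give as C57BL/6J with genotype WT and the study's methods as C57BL/6J (Ai14), a strain that carries a Cre-dependent fluorescent reporter: dorsal telencephalon, the tissue that becomes the cerebral cortex, was taken on gestational day 12.5 from 3 pregnancies (numbered 3, 4 and 5), and the fetuses of each pregnancy were pooled by sex. This gave 6 cultures, 3 female (3F, 4F, 5F) and 3 male (3M, 4M, 5M), used between passages 7 and 10, and each culture therefore stands for several fetuses of 1 pregnancy. Each culture was kept for 5 days without ethanol (control, 0 mg/dL), at 120 mg/dL (26 mM) or at 320 mg/dL (70 mM), with the medium renewed on day 3, and its EVs and cells were collected together, so that each combination of dose and fraction held 6 libraries. These expanded neurosphere cultures model the progenitors of the tissue outside the animal.

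Transferrin is the iron carrier of blood and brain fluid: it delivers ferric iron to the transferrin receptor, which is taken into endosomes where the metal is released, reduced and passed to the cytoplasm by a divalent metal transporter. Iron that is not used at once is stored in ferritin, a hollow shell of heavy and light chains, or leaves the cell through ferroportin. A pair of iron regulatory proteins senses cytoplasmic iron and, when iron is scarce, binds hairpins called iron-responsive elements in the mRNAs of these genes, blocking translation when the hairpin lies in the 5′ UTR and protecting the mRNA from decay when it lies in the 3′ UTR. In the developing brain Trf is best known from oligodendrocytes and choroid plexus epithelium.

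The hairpins are shown because they are the sequences that tie the receptor, both ferritin chains and the exporter into 1 regulatory system. They were searched for on the transcript strand of the canonical UTRs (GENCODE annotation of GRCm39) as an unpaired C, 5 bases, the loop CAGTGN and 5 bases that pair with the first 5 (G with T allowed). The match is printed with 5 bases on either side, and capitals mark the unpaired C and the loop. Matches were found in 4 of the 8 genes, and they are matches of letters only.
Tfrc 1: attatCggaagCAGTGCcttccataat
Tfrc 2: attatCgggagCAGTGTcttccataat
Tfrc 3: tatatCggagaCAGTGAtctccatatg
Tfrc 4: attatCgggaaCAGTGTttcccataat
Fth1: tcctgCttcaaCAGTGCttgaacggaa
Ftl1: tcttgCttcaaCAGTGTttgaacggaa
Slc40a1: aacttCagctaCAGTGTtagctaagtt

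The 4 Tfrc matches lie in the 3′ UTR on the plus strand, at chr16:32450038-32450064, chr16:32450417-32450443, chr16:32450482-32450508 and chr16:32450529-32450555. The 3 others lie in 5′ UTRs, for Fth1 at chr19:9960097-9960123 on the plus strand, for Ftl1 at chr7:45109204-45109230 on the minus strand and for Slc40a1 at chr1:45964626-45964652 on the minus strand. The Fth1 and Ftl1 sites shared 25 of their 27 bases, as did Tfrc 1 and Tfrc 2. Tfrc 2 and Tfrc 4 shared 24, and Tfrc 2 and Tfrc 3 shared 17. The pattern was present in the 5′ UTR of 24 of 21770 protein-coding genes (0.11%) and in the 3′ UTR of 125 (0.574%). No match of these letters was found in the canonical UTRs of Trf (chr9:103081200-103107814, minus strand), Slc11a2 (chr15:100285776-100322953, minus), Ireb2 (chr9:54770970-54820011, plus) or Aco1 (chr4:40142998-40199010, plus). The search would miss a hairpin with an extra unpaired base in its stem, or one on another transcript of the gene. The lack of a match therefore does not show that these genes, Slc11a2 among them, lack an iron-responsive element.

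The cell libraries held 26.6 to 55.3 M counts and the EV libraries 0.959 to 5.51 M, and 6 EV libraries (3F and 4F controls, 4F and 3M at both ethanol doses) were under 2 M. Levels in CPM, counts scaled to a common library total, are given on 2 scales: one scaled within cells or within EVs, used between doses, and one scaled over all 36 libraries, used between EVs and cells. Of 12 markers of radial glia and neural stem cells, 11 were detected in all 18 cell libraries, including Nes (median 343 CPM within cells), Fabp7 (960 CPM) and Vim (1562 CPM). Sox2, a defining marker of these cells, was listed with a count of 0 in every library. It lies within the annotated gene Sox2ot on the same strand, and the part of the counting of overlapping genes in this 0 was not tested. Emx1 had a median of 0.232 CPM. None of 7 erythroid markers, genes of the blood lineage with heavy iron traffic, reached a median of 1 CPM in cells. In bulk libraries of this kind, fewer cells of a type and less RNA per cell cannot be told apart. The 4F EV library at 320 mg/dL stood apart in its scaling, with a TMM factor of 0.458 within EVs. The 3 doses of a culture came from 1 pool of fetal tissue, so the independent units are 6 cultures from 3 pregnancies.

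Ftl1 had the highest level per length of transcript in both fractions, followed by Fth1. Per kb of canonical transcript, on the scale over 36 libraries, the median cell level was 229 CPM for Ftl1 (range 121 to 313), the ferritin light chain, and 109 CPM for Fth1 (87.7 to 145), the heavy chain that oxidises iron on entry. Tfrc, the receptor, followed at 26.1 CPM per kb (10.6 to 64.3). Aco1, the cytoplasmic aconitase that becomes the iron regulatory protein IRP1 when it loses its cluster, lay at 12.4 (10.8 to 14.9), and Ireb2, which encodes the second regulatory protein, at 8.32 (6.33 to 10.7). Trf at 5.80 (4.23 to 14.9) and Slc11a2, the divalent metal transporter of the endosome, at 5.58 (4.73 to 7.88) had ranges that overlapped each other and that of Ireb2. Slc40a1, which encodes ferroportin, the iron exporter, lay at 0.0352 CPM per kb. Its 107 counts over 18 cell libraries amounted to 0.159 CPM of all counts, with an exact 95% Poisson interval of 0.130 to 0.192 that covers counting error only.

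In EVs both ferritin chains again led the order and Tfrc stood lower in it. The median EV level per kb, on the same scale, was 7842 CPM for Ftl1 (2630 to 13438), 222 for Fth1 (94.2 to 360), 7.34 for Ireb2, 6.36 for Aco1, 3.49 for Trf, 2.80 for Slc11a2 and 1.44 for Tfrc (0.226 to 2.04). Tfrc thus had rank 3 among the 8 genes in cells and rank 7 in EVs. Slc40a1 came to 21 counts over 18 EV libraries, 5 of which held none, or 0.357 CPM of all counts (exact 95% Poisson interval 0.221 to 0.546), and it was too low to enter the EV against cell test.

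The question of the first comparison was how the RNA of EVs differed from that of the cells that shed them. For cell RNA the study reports high RNA integrity numbers, whereas for EV RNA it states that they could not be calculated accurately. The part of RNA integrity in the differences between EVs and cells was not tested. Of the 8 genes, 7 passed the filter on low counts and 6 of these passed the test (edgeR quasi-likelihood test over 15281 genes, Benjamini-Hochberg adjusted p under 0.05). Over all genes tested 80.5% passed, 38.4% higher in EVs and 42.2% lower, so a call alone says little in this comparison and the sizes carry the result. Both ferritin chains were higher in EVs, and Tfrc, Slc11a2, Aco1 and Trf were lower. On the same scale the median difference over all genes tested was −0.08 on the log2 scale, against −0.60 for the 7 genes, the value of Trf.

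Ftl1 lay between 117 and 303 CPM in the cell libraries (median 222) and between 2548 and 13022 CPM in the EV libraries (median 7599), on the scale over 36 libraries. No EV library overlapped any cell library. The fitted difference was 4.96 on the log2 scale (SE 0.21, 18 libraries against 18), that is 31.2-fold higher in EVs, with an edgeR adjusted p of 9.84e-22. Ftl1 was higher in EVs in 6 of 6 cultures, by 4.10 (5F) to 5.73 (3M) on the log2 scale. Its reads can map elsewhere: 80.2% of the 50-base windows of its canonical transcript also occur in transcripts of 17 other annotated genes, 73.4% in Ftl1-ps1 alone, and its exons overlap an annotated miRNA gene, Gm56125, on the same strand over 109 bp and Gm10252 on the opposite strand over 355 bp. The processed copy that the count tables list as Ftl1-ps2 held 0 to 10 counts in any EV library. How the counting assigned reads shared with such copies was not tested, and the level of Ftl1 is uncertain to that extent.

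Fth1 lay between 81.5 and 134 CPM in cells (median 101) and between 87.5 and 334 CPM in EVs (median 206), on the same scale. The groups overlapped at their edges. The fitted difference was 0.89 on the log2 scale (SE 0.13, edgeR adjusted p = 1.17e-07), 1.85-fold higher in EVs, and the mean of each culture was higher in EVs by 0.10 (5F) to 1.47 (3M). This call depended on the scaling: with library totals in place of the trimmed-mean (TMM) factors the difference was 0.15 (adjusted p = 0.423), under which the median over all genes moved from −0.08 to −0.88 and the share of calls that were higher in EVs from 47.6% to 27.0%. Without a filter on low counts, which also changes the scaling, it was 0.27 (adjusted p = 0.116). Both ferritin chains, which are assembled into 1 shell, thus differed in the size of their excess in EVs, with Fth1 gaining 1.85-fold where Ftl1 gained 31.2-fold on the same scale. Of the Fth1 windows, 6.59% were shared with other annotated transcripts, all of Fth1-ps.

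Tfrc went the other way. It lay between 52.1 and 315 CPM in cells (median 128) and between 1.11 and 9.96 CPM in EVs (median 7.03), which rest on 1 to 36 counts per EV library. No EV library overlapped a cell library. The fitted difference was −4.33 on the log2 scale (SE 0.23, edgeR adjusted p = 1.07e-18), 20.2-fold lower in EVs, and the 6 cultures ranged from −5.86 (4F) to −2.82 (5F). Slc11a2, which works in the same endosome, was 1.91-fold lower in EVs at −0.93 (SE 0.13, adjusted p = 3.69e-08), with 14.3 to 23.8 CPM in cells against 3.32 to 18.02 CPM in EVs.

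Aco1 was the steadiest of the lower genes. It lay between 49.7 and 68.5 CPM in cells (median 56.9) and between 15.4 and 42.0 CPM in EVs (median 29.2) without overlap, and differed by −0.91 on the log2 scale (SE 0.08, edgeR adjusted p = 1.46e-12), with the cultures between −1.22 and −0.68. Its paralogue in iron sensing, Ireb2, lay between 37.2 and 63.1 CPM in cells and between 15.3 and 60.1 CPM in EVs and did not pass the test, at −0.17 (SE 0.11, 95% interval −0.38 to 0.04, adjusted p = 0.147). Ireb2 was lower in EVs in 4 of 6 cultures, and its value was 0.30 after thinning all libraries to the smallest total and −0.92 with library totals. Trf lay between 10.9 and 38.3 CPM in cells (median 14.9) and between 3.94 and 28.8 CPM in EVs (median 8.97), where it rests on 3 to 75 counts per library. It was 1.51-fold lower in EVs at −0.60 (SE 0.20, edgeR adjusted p = 0.00587) and lower in 6 of 6 cultures. Without pregnancy 4, however, the adjusted p was 0.0734, and in the control libraries alone, at −0.65, it was 0.123. The cell libraries compared here include those at 0 and 320 mg/dL whose values chose Trf. The Trf test is therefore not independent of that choice. Of the 7 genes tested, 3 (Ftl1, Tfrc and Aco1) had no overlap between 18 EV and 18 cell libraries, against 23.8% of all genes tested.

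**Figure D1:**
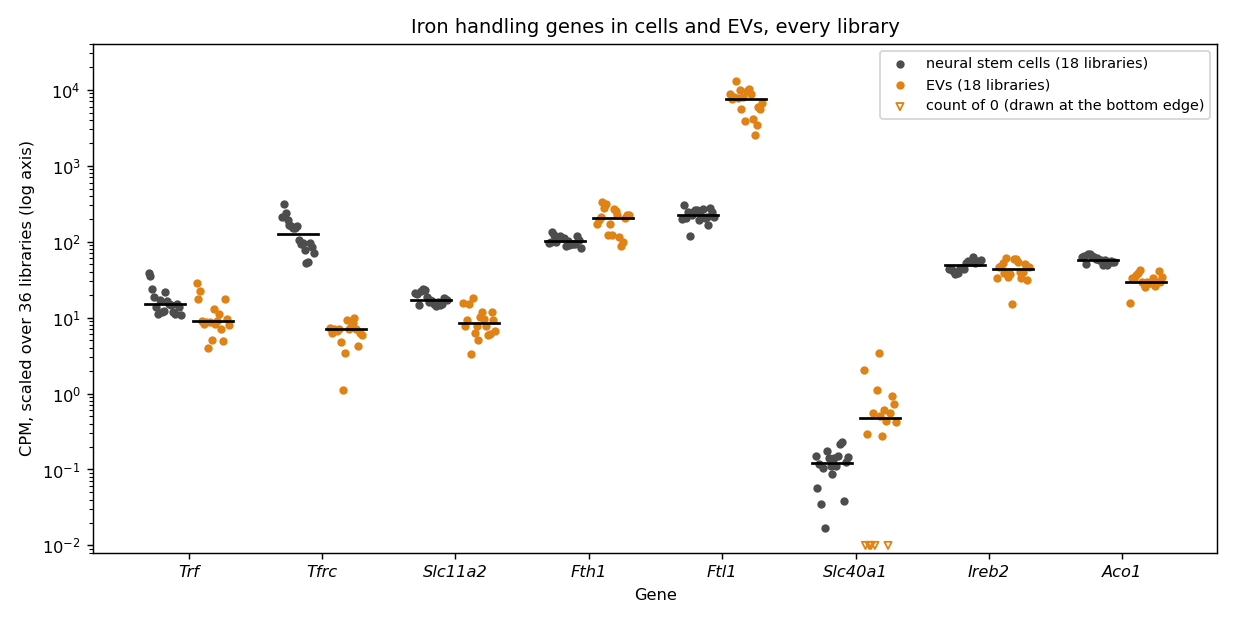
CPM scaled over 36 libraries (log axis) of each gene in the 18 cell libraries (grey) and the 18 EV libraries (orange), ordered within each gene by culture and then dose, with black bars at the medians and open triangles at the bottom edge for libraries with a count of 0. Ftl1 sits at 117 to 303 CPM in cells and 2548 to 13022 CPM in EVs, and Tfrc at 52.1 to 315 CPM in cells and 1.11 to 9.96 CPM in EVs.

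**Figure D2:**
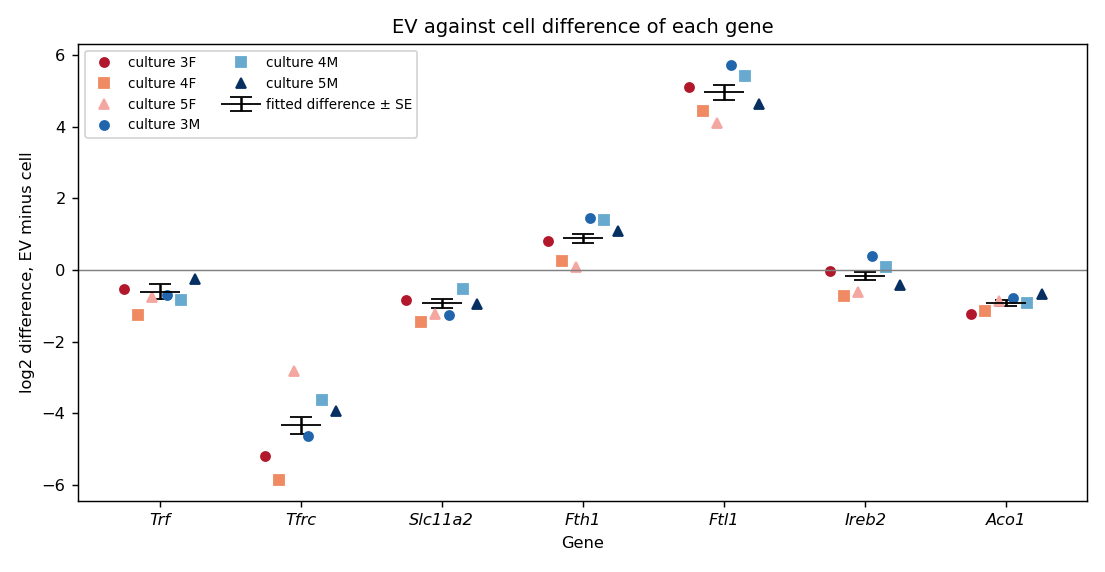
Log2 difference between EV and cell of 7 genes, with the mean over doses of each culture as a coloured point (red shades female, blue shades male) and the fitted difference ± SE in black. The points of Ftl1 lie between 4.10 and 5.73, those of Tfrc between −5.86 and −2.82, and those of Ireb2 on both sides of 0.

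In the exact sign-flip permutation test over the 6 cultures (two-sided, smallest p possible 0.03125), Ftl1, Fth1, Tfrc, Slc11a2, Aco1 and Trf each reached that smallest p for EV against cell, and Ireb2 had an exact p of 0.281. For Trf the exact p again draws on the cell libraries at 0 and 320 mg/dL that chose the gene. Among all genes tested, 34.8% were lower and 26% higher in EVs in all 6 cultures. At each dose taken alone, the difference was present in all 6 cultures for Ftl1, Tfrc, Slc11a2 and Aco1. Trf was lower in EVs in 5 of 6 cultures in controls, and Fth1 was higher in 5 of 6 at 120 mg/dL. For Ftl1 the mean over cultures was 5.02 in controls, 4.87 at 120 mg/dL and 4.84 at 320 mg/dL. For Tfrc it was −4.30, −4.54 and −4.21.

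The wider iron system was read from 80 further genes in 6 lists, of which 69 entered the EV against cell test. Of these, 23 were higher in EVs, 35 were lower and 11 did not pass, so 84.1% were called against 80.5% of all genes, and their median difference was −0.29 against −0.08. Of 8 genes tested in the list of iron export and the hepcidin axis, 5 were higher and 3 lower. Erfe, the hormone by which erythroid precursors lower hepcidin, was higher by 4.92 on the log2 scale (SE 0.33, edgeR adjusted p = 6.82e-16), from 1.23 ± 0.392 CPM in cells to 39.0 ± 33.4 CPM in EVs (SD, n = 18 each). Hephl1, a copper ferroxidase related to hephaestin, was 6.48-fold higher (SE 0.38 on the log2 scale, adjusted p = 6.87e-08), with a log2 difference of 1.24 without the 6 EV libraries under 2 M counts. Cp, or ceruloplasmin, the ferroxidase that partners ferroportin, differed by −3.12 on the log2 scale, at 18.8 ± 7.92 CPM in cells and 2.30 ± 1.52 CPM in EVs (adjusted p = 1.19e-13).

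Of 17 genes tested for heme synthesis, transport and breakdown, 6 were higher and 8 lower. Hmox1, the heme oxygenase that frees iron from heme, was 7.00-fold lower (−2.81, SE 0.17, adjusted p = 7.1e-17), at 57.7 ± 23.2 CPM in cells and 7.94 ± 3.33 CPM in EVs. In the list of the transferrin cycle and iron uptake 3 of 9 tested genes were higher and 5 lower, among them Steap1, of the family of endosomal metalloreductases, at −2.77 (SE 0.41, adjusted p = 1.67e-07). Steap1 lay at 2.74 ± 1.70 CPM in cells and 0.429 ± 0.456 CPM in EVs. In EVs it rests on only 0 to 2 counts per library, so the size of its difference is uncertain. Of 26 tested genes of mitochondrial iron import and iron-sulfur cluster assembly, 7 were higher and 13 lower. Of 6 tested in the list of other mRNAs known to carry iron-responsive elements and other sensors, 1 was higher and 5 lower, and of 3 tested for ferritin loading and turnover, 1 was higher and 1 lower.

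The question of the next comparisons was how 5 days of ethanol changed the RNA of the cells. Trf was lower at 320 mg/dL than in control cells in each of the 6 cultures, and these are the values that chose it. On the scale within cells, control libraries held 50.9 CPM in 3F, 22.9 in 4F, 19.4 in 5F, 24.6 in 3M, 28.3 in 4M and 20.3 in 5M. At 320 mg/dL the same cultures held 30.7, 16.4, 14.7, 15.4, 20.3 and 14.6 CPM. Culture 3F stood above the others at every dose, and the range at 320 mg/dL (14.6 to 30.7) overlapped the control range (19.4 to 50.9), so the difference shows within cultures and not between the groups as wholes. The log2 difference was −0.54 ± 0.13 (SD, n = 6 cultures), from −0.73 in 3F to −0.39 in 5F. In this comparison 7 of 17792 genes tested (0.0393%) passed the test and 2.42% were lower in all 6 cultures. Trf was one of the 7, a statement that the choice of the gene fixes. Its edgeR call was lost under 9 of the 10 alternatives, all but DESeq2, among them leaving out culture 3F, where the fitted value was −0.49.

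Of the other 7 genes, 6 had mean differences between −0.18 (Tfrc) and −0.0027 (Ireb2) on the log2 scale in cells at 320 mg/dL, given in the same way without a test. The receptor Tfrc differed by −0.18 ± 0.27 on the log2 scale (SD, n = 6 cultures) and was lower in 4 of 6 cultures, at 104 to 277 CPM (median 170) in controls and 70.3 to 303 CPM (median 171) at 320 mg/dL. Tfrc varied far more between cultures than between doses, with 3F the highest and 5F the lowest culture at each dose. The transporter Slc11a2 differed by −0.15 ± 0.24 and Aco1 by −0.11 ± 0.13, the latter lower in all 6 cultures with values between −0.33 (3F) and −0.0049 (4F). Fth1 (−0.03 ± 0.32), Ftl1 (−0.03 ± 0.33) and Ireb2 (−0.0027 ± 0.09) had means near 0, and Slc40a1, with 1 to 12 counts per library, could not be read at this depth.

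At 120 mg/dL Trf lay at 44.4 CPM in 3F, 15.6 in 4F, 15.5 in 5F, 18.6 in 3M, 22.3 in 4M and 18.5 in 5M, again below each culture's control. Its difference was −0.33 ± 0.15 on the log2 scale (SD, n = 6), lower in 6 of 6 cultures, as were 1.71% of all genes tested. These values share their control libraries with the comparison that chose Trf and are likewise given without a test of Trf. The fitted difference of Trf was −0.32 (SE 0.07), given as a description only. No gene at all was called at 120 mg/dL by edgeR (0%), with 444 at an unadjusted p under 0.05, and DESeq2 called 4, none of the 8 genes among them. The 6 others that entered the test differed by −0.09 (Tfrc, 95% interval −0.31 to 0.12) to 0.04 (Ireb2, −0.07 to 0.15). Among these 6 the cultures spread most for Ftl1, from −1.05 in 3M to 0.52 in 3F.

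**Figure D3:**
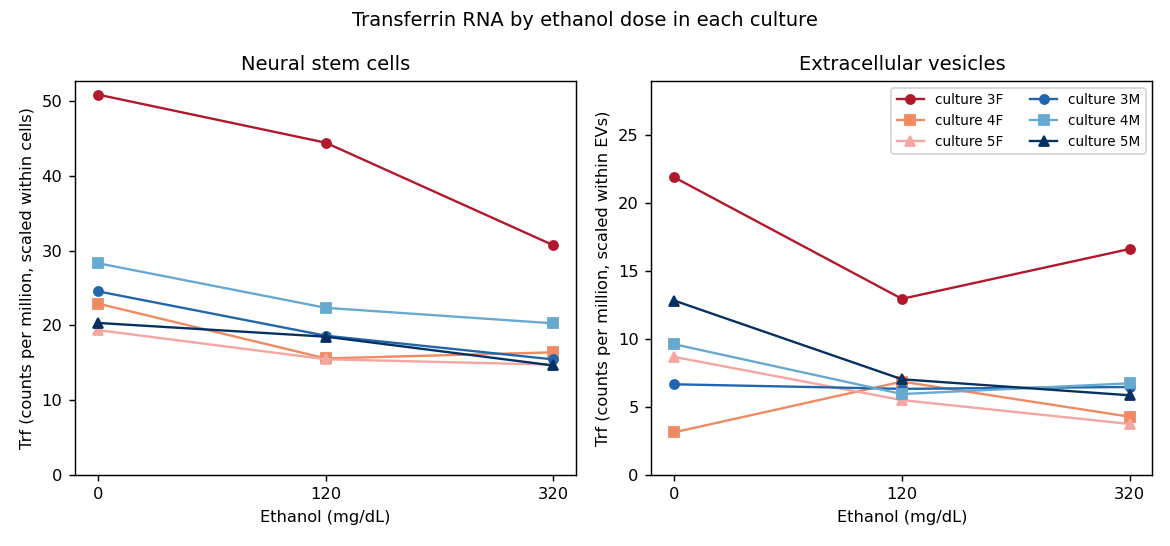
Trf in CPM on the scale within cells (left) and within EVs (right) at 0, 120 and 320 mg/dL ethanol (doses evenly spaced), with 1 line for each culture. In cells each culture lies lower at both doses than in its control, with 3F at 50.9 CPM in the control and 30.7 CPM at 320 mg/dL. In EVs 5 of 6 lines lie lower at both doses, that of 3M only slightly, while 4F starts at 3.13 CPM and ends at 4.28 CPM.

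Markers of other cell types were set beside the Trf values, since oligodendrocyte and choroid plexus cells express Trf strongly. The summed level of 14 oligodendrocyte-lineage genes in cells was 448 to 833 CPM in controls, 520 to 722 CPM at 120 mg/dL and 492 to 580 CPM at 320 mg/dL, carried mostly by Olig1 (median 341 CPM) and Olig2 (116 CPM), which progenitors also express. At 320 mg/dL the sum differed by −0.19 ± 0.35 on the log2 scale (SD, n = 6) and was lower in 5 of 6 cultures, and at 120 mg/dL by −0.03 ± 0.18, lower in 3 of 6. None of the 11 genes of this list that entered the test was called at 320 mg/dL. Of the defining markers of mature cells, Mog (0.0721 CPM) and Mag (0.0386 CPM) were near 0. The 7 choroid plexus genes summed to 2.21 to 40.7 CPM over the cell libraries, led by Otx2 (median 4.59 CPM), with Ttr, the defining transcript of that epithelium, at a median of 0.106 CPM, and their sum was lower at 320 mg/dL in 2 of 6 cultures. The part of cell composition in the Trf values was not tested.

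By Pearson correlation of log2 CPM over the 18 cell libraries, the genes whose levels were most like that of Trf among 17791 were Mex3a (r = 0.91), Slc39a10 (0.88), Aen (0.82), Adamts4 (0.82) and Hnrnph1 (0.82). These libraries share 6 cultures, and without 3F the values were 0.79, 0.41, 0.56, 0.28 and 0.79. Over all 18 libraries the r with Trf was 0.64 for Tfrc (rank 164, and 0.31 without 3F), 0.18 for Slc11a2, 0.14 for Aco1, 0.08 for Ftl1, 0.01 for Fth1 and −0.38 for Ireb2. With each culture's mean removed it was 0.69 for Aco1, 0.66 for Slc11a2, 0.47 for Tfrc, 0.10 for Ftl1, −0.04 for Fth1 and −0.12 for Ireb2. The order among these genes thus depended on whether levels between cultures were counted. With the means removed only differences between doses of a culture remain, and these include the fall at 320 mg/dL that chose Trf. The r values are a description without a test.

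In EVs, Trf was lower than in controls at both doses in 5 of 6 cultures, with 4F as the exception, but the counts were thin and the test was not passed. In 3M, counted among the 5, the log2 difference was only −0.04 at 320 mg/dL and −0.07 at 120 mg/dL. On the scale within EVs the controls held 3.13 to 21.9 CPM (median 9.15), the libraries at 120 mg/dL 5.50 to 12.96 CPM (median 6.60) and those at 320 mg/dL 3.74 to 16.6 CPM (median 6.16). The groups overlapped, and 3F was the highest culture at each dose. The fitted difference was −0.55 at 320 mg/dL (SE 0.20, 95% interval −0.94 to −0.16, edgeR unadjusted p = 0.0137, adjusted p = 0.269) and −0.56 at 120 mg/dL (SE 0.20, unadjusted p = 0.0125, adjusted p = 0.769). The exact sign-flip p over cultures was 0.125 and 0.344. The 4F values rest on 5, 8 and 3 counts, and without pregnancy 4 the difference at 320 mg/dL was −0.64 (adjusted p = 0.161), and without pregnancy 5 it was −0.24 (adjusted p = 0.975). None of the 8 genes was called in EVs at either dose, where 10 of 11880 genes (0.0842%) passed at 320 mg/dL and 1 (0.00842%) at 120 mg/dL. Both doses were set against the same control libraries.

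The other genes gave small differences in EVs beside wide spreads between cultures. Slc11a2 differed by −0.28 at 320 mg/dL (SE 0.23, 95% interval −0.73 to 0.18) and −0.36 at 120 mg/dL (SE 0.23, −0.82 to 0.10), and was lower in 5 and 4 of 6 cultures. Ftl1 lay between 3213 and 9559 CPM in control EVs (median 5539) and between 2580 and 7231 CPM at 320 mg/dL (median 5499), a difference of −0.20 (SE 0.26). Fth1 differed by −0.02 (SE 0.13) and Tfrc by −0.06 (SE 0.21) at 320 mg/dL. At 320 mg/dL the interval was −0.35 to 0.29 for Ireb2 and −0.25 to 0.33 for Aco1. For Slc40a1 no EV library held more than 4 counts.

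**Figure D4:**
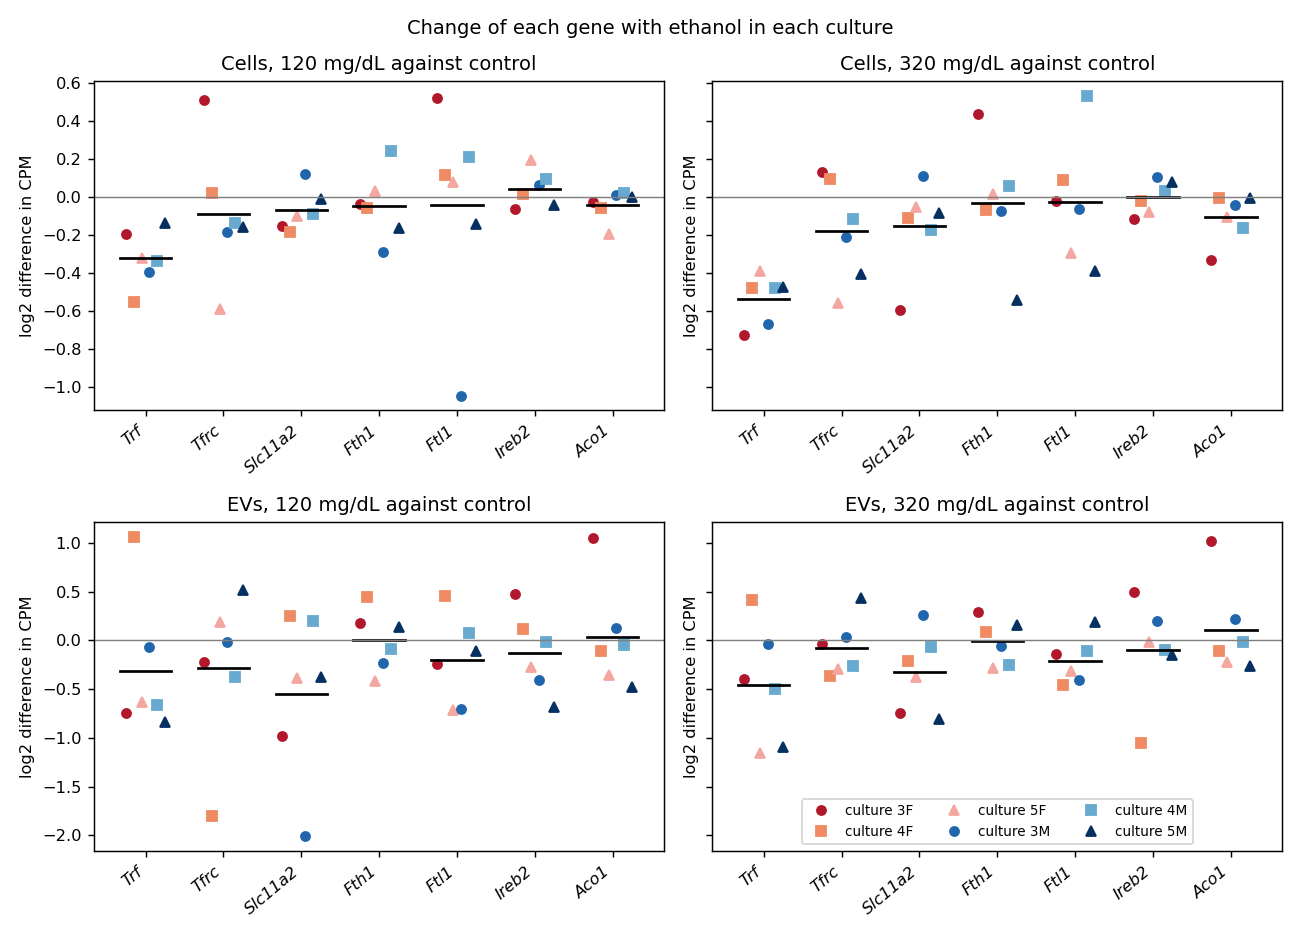
Log2 difference in CPM from the control library of the same culture, for 7 genes (Slc40a1 left out for its low counts), in cells (top) and EVs (bottom) at 120 mg/dL (left) and 320 mg/dL (right), with 1 point for each culture and a black bar at the mean of 6. All 6 Trf points lie under 0 in cells at both doses, while those of the other genes, apart from Aco1 in cells at 320 mg/dL, lie on both sides of 0.

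The ratio of EV to cell was compared between doses to ask whether the level of these RNAs in EVs relative to cells moved with ethanol. No member was called at either dose, beside 0 of 18728 genes at 320 mg/dL (0%, 224 at an unadjusted p under 0.05, 0 by DESeq2) and 1 at 120 mg/dL (0.00534%, 2 by DESeq2). For Trf at 320 mg/dL, given without a test, the culture ratios moved by 0.06 ± 0.67 on the log2 scale (SD, n = 6), up in 3 and down in 3. For Ftl1 the interval of the change at 320 mg/dL was −1.33 to 0.91 and for Tfrc −0.99 to 1.21, from a fit that blocks the EV and cell pair but not the culture. The differences of single cultures ran from −0.63 to 0.59 for Ftl1 and from −0.56 to 0.88 for Tfrc. The narrowest interval at 320 mg/dL was that of Aco1, −0.38 to 0.71.

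Female and male cultures were compared on counts summed over doses, 3 against 3. Of the 20972 genes tested in cells, 7 (0.0334%) passed and none of the 8 was among them, and in EVs 0 of 14847 passed (0%, 2229 at an unadjusted p under 0.05, 28 by DESeq2). The nearest were in EVs. Fth1 lay at 67.2 to 158 CPM (median 103) in the 9 female EV libraries and at 149 to 245 CPM (median 184) in the 9 male ones, with 3F at 320 mg/dL (158 CPM) above the 5M control (149 CPM). The female minus male difference was −0.85 on the log2 scale (SE 0.36, edgeR unadjusted p = 0.0445, adjusted p = 0.329) and lower in 3 of 3 pregnancies, as were 17.9% of all genes tested. Ftl1 (−0.67, SE 0.69) and Ireb2 (−0.45, SE 0.24) were also lower in all 3 pregnancies, and Slc11a2 (−0.64, SE 0.27, adjusted p = 0.327) in 2. In cells Fth1 differed by −0.08 (SE 0.17) between the sexes. The female minus male difference of Trf in cells was 0.30 (SE 0.39), and −0.32 without pregnancy 3, so its direction between the sexes rested on that pregnancy.

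None of the 80 further iron genes was called by edgeR or DESeq2 in any of the dose, ratio or sex comparisons. In cells, 5 of 70 tested had an unadjusted p under 0.05 at 320 mg/dL and 1 of 70 at 120 mg/dL. In EVs it was 5 of 60 at each dose, for the ratio 0 and 1 of 70, and for sex 3 of 72 in cells and 11 of 65 in EVs. Over all genes tested the shares under that p were 8.57% and 2.5% in cells, 11.9% and 6.26% in EVs, 1.2% and 0.902% for the ratio, and 6.67% and 15% between the sexes in cells and EVs. The median difference of the 70 genes in cells at 320 mg/dL was −0.02.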

How the data were processed

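Total RNA, depleted of ribosomal RNA, of 18 cell and 18 EV samples was sequenced by the study. The authors trimmed reads (Trimmomatic), aligned them to mm39 (STAR) and counted reads per gene (HTSeq), per the submitters' processing notes, and deposited raw counts for 40205 features per library, of which 31069 had a count in some library. Whether counting used strand is not given in the sources used here.

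The 8 genes and the further lists were chosen with earlier results of these data known. All 8 genes are named whatever their values. Of the further genes, the 3 with the largest difference in each direction are named, among those called and differing one way in all 6 cultures. One gene that this rule names is not reported here. For likeness to Trf the 5 highest correlations are named.

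The deposited counts were fitted over all genes with edgeR 4.0.16 in R 4.3.3 (quasi-likelihood F test, two-sided, filterByExpr with a minimum count of 10 and total of 15, TMM, Benjamini-Hochberg, threshold 0.05). EV against cell used 36 libraries with terms for sex and dose and took the 3 libraries of a culture as independent. Ethanol was fitted within cells and within EVs with the culture as a block, the ratio with the EV and cell pair as a block, and sex on counts summed over doses. Culture differences used log2 CPM with a prior count of 1. The culture block follows the study's design, in which doses share a pregnancy and sex, and deviations of same-culture libraries correlated above 0.1 in all 6 pairs of each kind (medians 0.684 and 0.673 in cells, 0.356 and 0.530 in EVs). No libraries held identical counts. The fits were tested on simulated data. Alternatives were DESeq2 1.42.0, other scalings, no filter, other blocks, thinning and leaving out each pregnancy. Leaving out culture 3F and leaving out EV libraries under 2 M counts were added after seeing the data.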

Additional observations from a re-analysis of the deposited data

Results flagged for a closer look

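Of 48 groups of 6 libraries examined (each gene, fraction and dose), 9 held a library whose gap to its nearest neighbour exceeded Dixon's 95% limit as a share of the group's range, which chance reaches in about 1 in 20 groups. Gap and range were taken on log2 CPM, whereas the levels printed beside them are in CPM. In 3F, Trf was the highest library at 120 mg/dL in cells (gap 0.651 of the range, 44.4 CPM against 15.5 to 22.3) and in EVs (0.716, 12.96 CPM against 5.50 to 7.03), and Aco1 was the lowest control EV library (0.634, 11.7 CPM against 21.3 to 30.0). In 3M, Ftl1 was the lowest cell library at 120 mg/dL (0.657, 158 CPM against 281 to 380), Slc11a2 the highest at 320 mg/dL (0.646, 32.1 CPM against 18.7 to 22.7), and Slc40a1 the lowest at 320 mg/dL (0.658, on 1 count). In 4F EVs, Tfrc was lowest at 120 mg/dL (0.749, on 1 count), and at 320 mg/dL Ireb2 was lowest (0.691, on 9 counts) and Slc40a1 highest (0.799, on 2 counts). These 4F libraries are among the 6 under 2 M counts, and the part of depth in their values was not tested.

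Of 80 effects compared between female and male cultures, 1 split by sex: Ireb2 in cells at 320 mg/dL was below its control in all 3 female cultures and above it in all 3 male cultures, a female minus male difference of −0.143 on the log2 scale. The difference was not tested.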

How the results depend on the processing

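Ftl1, Tfrc, Slc11a2 and Aco1 were called between EVs and cells, in 1 direction each, under all 11 alternatives. Fth1 lost its call with library totals (0.15) and without a filter (0.27), and Trf in the controls alone (−0.65), after thinning (−0.23) and without pregnancy 4 (−0.47). Ireb2 reversed to 0.30 after thinning (adjusted p = 0.0165, edgeR), and was called lower in EVs with library totals (−0.92), without a filter (−0.79) and without pregnancy 3 (−0.32). Genes called between EVs and cells numbered 23256 by DESeq2, 22029 without a filter and 6426 after thinning. With each EV and its cell library paired in a replicate block they numbered 12214, 6 of the genes described here among them, Trf at −0.67.

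In cells at 320 mg/dL DESeq2 called 94 genes. With the compared doses only, library totals, median-of-ratios factors, no filter, no replicate block or no culture 3F, 0 were called, and 0 of the 8 genes, and without 1 pregnancy 0 to 1, and 0 of the 8. Trf stayed between −0.64 and −0.45. At 120 mg/dL DESeq2 called 4. In EVs at 320 mg/dL the count was 0 with the compared doses only, without a replicate block, without 3F and without the EV libraries under 2 M counts, 6 with library totals, 207 without a filter, 267 by DESeq2 and 0 to 110 without 1 pregnancy. In EVs at 120 mg/dL it was 0 with the compared doses only, median-of-ratios factors or no 3F, 4 with library totals, 13 by DESeq2, 157 without a filter and 0 to 3 without 1 pregnancy. For the ratio it was 2 without a filter at either dose, and at 120 mg/dL 2 by DESeq2 and 0 to 1 without 1 pregnancy. Between the sexes in cells it was 994 with 18 libraries as separate samples, 175 by DESeq2 and 0 to 6 without 1 pregnancy, and in EVs 1224 (1 of the 8 genes), 28 by DESeq2, 22 with library totals, 1 with median-of-ratios factors and 644 without a filter. The cause of these changes was not tested. Trf, Tfrc, Slc11a2 and Slc40a1 rest on few counts in EVs.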
